A study of Drosophila melanogaster with 33 samples.

Results

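The 10 genes described here, *para*, *cac*, *Sh*, *Shab*, *Shal*, *Shaw*, *eag*, *slo*, *Ih* and *KCNQ*, encode the best known voltage-gated ion channels of fly neurons and muscle, and they are 10 of 18277 annotated genes. They were taken as a named list, not by any measured value. For each gene, Lola-I summits were sought within 200 bp of every annotated transcription start site (TSS) and in the introns, and alternative promoters were told apart. The series holds 33 ChIP-seq samples in 12 groups, of which the 2 Lola-I libraries were used and 31 samples were not analysed here. Both libraries came from whole embryos of the wild-type stock OregonR aged 14 to 17 h, precipitated with a custom rabbit polyclonal antibody against Lola-I, and each has 1 deposited peak list. The labels number them as replicates without saying whether the embryos were collected separately. Because whole embryos were used, binding in neurons, in muscle and in other cells cannot be told apart.

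Lola is a family of BTB zinc finger transcription factors made from 1 gene by alternative splicing, and the title of the series describes the isoform Lola-I as a promoter pioneer factor that establishes Pol II pausing during development. The channel genes belong to a late programme: neurons and muscles acquire their electrical properties near the end of embryogenesis. *para* encodes the sodium channel that carries the action potential, and *cac* the pore of the calcium channel that triggers transmitter release. *Sh* and *Shal* encode potassium channels with fast inactivating A-type currents, *Shab* a delayed rectifier, *Shaw* a potassium channel with little inactivation, *eag* the founding member of the ether-à-go-go channels, *slo* the calcium-activated BK channel, *KCNQ* the slow M-type channel and *Ih* the cation channel opened by hyperpolarization. Many of them are long genes that use several promoters to make different transcripts.

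The replicate 1 list held 1750 peaks on the 7 chromosome arms and the replicate 2 list 9665. Shared peaks, 1531 in number, are those in replicate 1 whose interval touched one of replicate 2 over at least 1 bp. Counted the other way, 1465 replicate 2 peaks were touched. The median fold enrichment, a ratio over background computed by the authors' peak caller, was 4.42 in replicate 1 and 5.44 in replicate 2. Fold and rank are each peak's own values from the authors' lists, with rank 1 given to the highest −log10 p-value, and they are comparable only within a list. Read depth is unknown, since peak lists hold no read totals. A promoter that has no peak in the shorter list is therefore described as not called there, not as unbound.

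At promoters, the listed channel genes fell into 3 sets. *cac* and *slo* had a shared Lola-I summit within 200 bp of a TSS. *Shab*, *Shal*, *Shaw*, *eag* and *KCNQ* had a promoter summit in replicate 2 alone, and *para*, *Sh* and *Ih* had none in either list. The count of 2 of 10 genes with a shared promoter summit, and the same 2 genes in replicate 1, stands beside 4.51% and 4.56% of all genes. In replicate 2 the count was 7 of 10 genes, beside 25.4% of all genes. The channel genes are long, with a median length of 51.5 kb against 1.65 kb over all genes, and length moved with these shares. Among the 1985 protein-coding genes of at least 10 kb, 16.3% had a shared promoter summit and 66.3% had a replicate 2 promoter summit, so both counts for the channel genes are close to those of other long genes.

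Told apart, the 10 genes have 29 promoters, with TSSs that follow each other within 100 bp taken as 1 promoter. Of these, 2 carried a shared summit, beside 3.84% of all promoters, and 9 had a replicate 2 summit, beside 23.4% of all promoters. Those 9 promoters were served by 8 summits, because 1 summit in *Shab* lay within 200 bp of neighbouring promoters. In protein-coding genes of at least 10 kb, 367 of 4205 promoters carried a shared summit and 1736 had a replicate 2 summit. Both shares are higher than those of the 29 channel gene promoters. Among the genes with several promoters, *cac* had its shared summit at 1 of 3 promoters and *slo* at 1 of 2. With promoter summits of replicate 2 alone, *Shaw* and *KCNQ* had one at 1 of 2 promoters, and *Shab* at 3 of 3. How often a summit marks only some promoters was not computed over all genes.

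**Figure D1:**
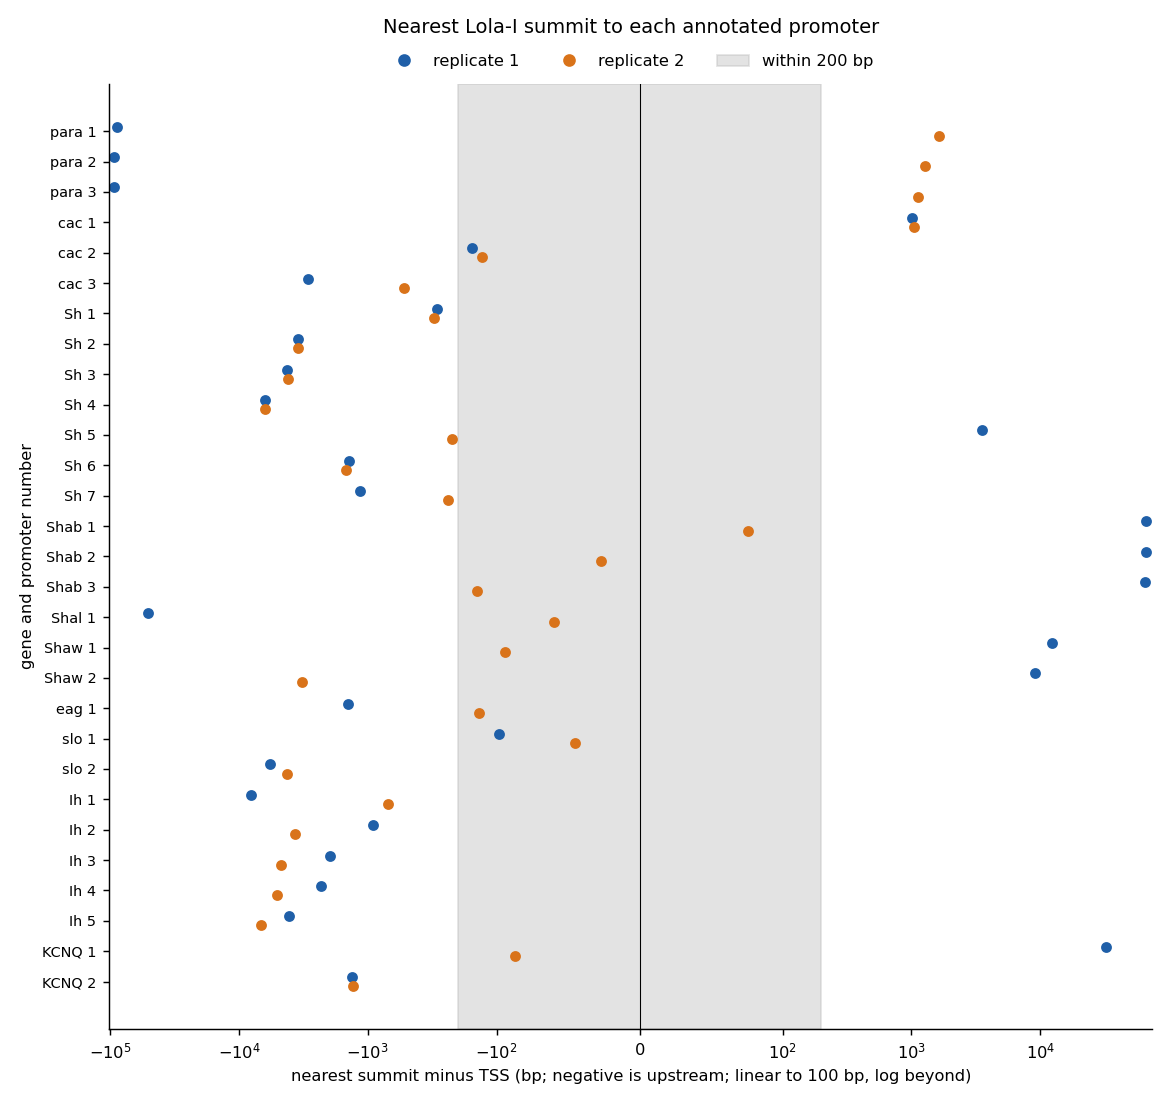
Distance from each of the 29 annotated promoters of the channel genes (rows) to the nearest Lola-I summit in replicate 1 (blue) and replicate 2 (orange), in bp along the gene, linear to 100 bp and logarithmic beyond, with negative values upstream. The grey band marks 200 bp on either side of the TSS, and in it lie summits of both replicates at *cac* promoter 2 and *slo* promoter 1 and replicate 2 summits alone at 7 further promoters.

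*cac* had the highest-ranked promoter peak of the family. The summit lay 155 bp upstream of promoter 2 in replicate 1 and 130 bp upstream in replicate 2, at 11.1-fold and 96.7-fold enrichment. Its ranks were 341 of 1750 and 335 of 9665, so it was higher than most peaks of both lists. Promoter 2 starts 16 of the 18 annotated transcripts, while promoters 1 and 3 start 1 transcript each and had no summit within 200 bp. In *slo*, whose BK channel repolarizes neurons and muscle, the shared peak ranked below that of *cac* in both lists. It lay 98 bp upstream of promoter 1 in replicate 1 and 45 bp upstream in replicate 2, with folds of 2.35 and 15. Its ranks were 1291 of 1750 and 1271 of 9665, so it was low in the replicate 1 list but in the upper part of the replicate 2 list. *slo* promoter 2, which starts 15 of the 23 transcripts against 8 at promoter 1, had its nearest summit 5753 bp upstream in replicate 1 and 4219 bp upstream in replicate 2. The call at *cac* needs a distance limit of at least 155 bp, and the call at *slo* rests on a peak in the lower part of the replicate 1 list.

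These are the 161 bases centred on the replicate 1 summits of the only shared promoter peaks of the 10 genes, from the RefSeq Release 6 assembly (dm6), 5′ to 3′ on the strand of the gene. Capitals mark AAAGCT or its reverse complement, a word that many Lola-I peaks of this series hold and that was chosen with earlier results of these data known. The word occurs in both sequences.
cac promoter 2, chrX:11983990-11984150, minus strand: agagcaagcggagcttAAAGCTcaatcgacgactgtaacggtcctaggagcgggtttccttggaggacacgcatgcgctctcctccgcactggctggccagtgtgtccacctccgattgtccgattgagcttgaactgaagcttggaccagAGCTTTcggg
slo promoter 1, chr3R:24662313-24662473, plus strand: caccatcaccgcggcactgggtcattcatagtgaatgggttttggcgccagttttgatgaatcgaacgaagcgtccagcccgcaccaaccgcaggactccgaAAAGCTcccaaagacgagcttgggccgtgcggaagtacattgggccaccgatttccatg

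*Sh* showed the reverse arrangement, with strong shared peaks but none within 200 bp of a TSS. It is the longest of the 10 genes (139 kb on the X chromosome, minus strand) and has 7 promoters. Its 3 shared intronic summits each lay upstream of an internal promoter, and a further shared summit lay just outside the gene. The summit 1144 bp upstream of promoter 7 had 24.1-fold enrichment in replicate 1 (rank 116) and 126-fold in replicate 2 (rank 227), and the summits of the 2 lists were 3 bp apart. Upstream of promoter 6, at 1390 bp, the folds were 6.85 and 42.6 (ranks 600 and 803), and the summits were 88 bp apart. The last lay 3506 bp upstream of promoter 2, with folds of 16.4 and 92.8 (ranks 208 and 353). The peak outside the gene had its summit 293 bp upstream of promoter 1 in replicate 1 and 307 bp upstream in replicate 2, with folds of 12.7 and 65.5 (ranks 292 and 511). It therefore falls just beyond the 200 bp limit, and its fold is higher than that of the *cac* promoter peak in replicate 1 and lower in replicate 2.

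Promoter 1 starts 5 of the 17 *Sh* transcripts and promoter 6 another 5, and no promoter of *Sh* starts most of them. Replicate 2 alone added 4 intronic summits. Those nearest to a promoter lay 237 bp upstream of promoter 7 (8.23-fold, rank 3770) and 223 bp upstream of promoter 5 (2.55-fold, rank 9399), again just outside 200 bp. Of the others, 1 lay 60 bp downstream of the TSS of *CG6867*, a gene nested in a *Sh* intron, with 7.11-fold enrichment and rank 3637. The sequences below are the 161 bases around the 4 shared summits at *Sh*, shown because *Sh* has more shared peaks than any other of the 10 genes. Capitals again mark AAAGCT on either strand, which occurs 3, 5, 2 and 2 times in them. The second line holds a run in which AAAGCT and its reverse complement overlap.
Sh intron upstream of promoter 7, chrX:17968289-17968449, minus strand: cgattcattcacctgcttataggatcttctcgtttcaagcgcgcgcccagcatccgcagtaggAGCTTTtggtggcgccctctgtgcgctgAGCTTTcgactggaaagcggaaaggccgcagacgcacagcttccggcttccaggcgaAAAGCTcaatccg
Sh intron upstream of promoter 6, chrX:17991989-17992149, minus strand: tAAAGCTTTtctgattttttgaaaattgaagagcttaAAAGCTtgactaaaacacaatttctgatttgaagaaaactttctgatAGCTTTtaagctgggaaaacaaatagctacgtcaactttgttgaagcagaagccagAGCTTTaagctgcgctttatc
Sh intron upstream of promoter 2, chrX:18018661-18018821, minus strand: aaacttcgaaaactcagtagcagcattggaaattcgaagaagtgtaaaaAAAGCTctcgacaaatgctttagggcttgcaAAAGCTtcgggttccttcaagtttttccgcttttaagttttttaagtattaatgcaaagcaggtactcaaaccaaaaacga
Sh upstream of promoter 1, chrX:18063460-18063620, minus strand: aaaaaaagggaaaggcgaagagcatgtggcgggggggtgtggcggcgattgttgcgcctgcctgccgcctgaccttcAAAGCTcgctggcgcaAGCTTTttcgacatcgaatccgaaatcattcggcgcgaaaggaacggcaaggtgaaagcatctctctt

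*eag* had peaks at its single promoter and upstream of it, and the 2 differed between the lists. The summit 136 bp upstream of its only promoter, which starts all 7 transcripts, was in replicate 2 alone, at 23.2-fold enrichment and rank 1070. A neighbouring gene has a TSS 241 bp from the same summit. The shared peak lay farther out, 1419 bp upstream in replicate 1 and 1414 bp upstream in replicate 2, with folds of 6.91 and 114 (ranks 597 and 255). That summit is closer to 2 other TSSs than to *eag*, being 526 bp upstream of *pdgy* and 361 bp upstream of *lncRNA:CR44831* in replicate 1. Another replicate 2 summit, 1855 bp upstream of *eag* (8.47-fold, rank 2961), lay 90 bp upstream of *pdgy* and 75 bp downstream of the start of *lncRNA:CR44831*. No summit of either list was called within the 54.5 kb of *eag* downstream of its TSS.

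Shown for contrast are the 161 bases around the *eag* summits, because the words in them differ. Capitals mark AAAGCT on either strand in the first sequence, where it occurs 3 times, and TATCGATA, the DNA replication-related element (DRE), in the second, where it occurs once and AAAGCT does not occur.
eag upstream, shared, chrX:14953978-14954138, plus strand: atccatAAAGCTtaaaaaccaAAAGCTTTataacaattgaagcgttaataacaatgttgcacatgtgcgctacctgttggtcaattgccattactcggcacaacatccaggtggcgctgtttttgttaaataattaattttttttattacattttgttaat
eag promoter, replicate 2 alone, chrX:14955261-14955421, plus strand: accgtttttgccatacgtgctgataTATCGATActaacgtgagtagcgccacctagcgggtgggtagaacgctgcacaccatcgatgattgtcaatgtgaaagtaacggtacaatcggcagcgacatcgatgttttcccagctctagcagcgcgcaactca

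The remaining Shaker-type genes, *Shab*, *Shal* and *Shaw*, had weak promoter peaks in replicate 2 alone. In *Shab* a summit 27 bp upstream of promoter 2 and 76 bp downstream of the promoter 1 TSS had 3.4-fold enrichment (rank 6926), and a summit 141 bp upstream of promoter 3 had 4.29-fold (rank 7222). *Shal* had a summit 60 bp upstream of its single promoter, which starts its 3 transcripts, with 3.14-fold enrichment and rank 7879. *Shaw* had a summit 94 bp upstream of promoter 1, which starts 4 of 5 transcripts, with 5.03-fold enrichment and rank 5612. All 4 summits rank in the lower part of the replicate 2 list, and the nearest replicate 1 summit to *Shal* was 51320 bp away. *Shal* also had 1 intronic replicate 2 summit (4.52-fold, rank 5683), while *Shab* and *Shaw* had no intronic summit in either list.

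The sequences around these 4 summits are printed to set them beside the shared peaks. The printed sequences do not stand for all peaks. In windows of 201 bp, AAAGCT occurred in 10 of 12 shared peaks and in 5 of 27 peaks of replicate 2 alone. Capitals mark GAGAG on either strand, the core of the element bound by the GAGA factor (GAF), and TATCGATA. GAGAG occurs once and 9 times in the *Shab* sequences, not at all in *Shal* and in 2 overlapping places in *Shaw*, and neither TATCGATA nor AAAGCT occurs in them.
Shab promoter 2, chr3L:2895013-2895173, plus strand: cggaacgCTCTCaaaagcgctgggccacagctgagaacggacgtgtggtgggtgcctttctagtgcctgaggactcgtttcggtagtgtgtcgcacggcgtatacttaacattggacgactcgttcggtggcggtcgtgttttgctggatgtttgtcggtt
Shab promoter 3, chr3L:2896522-2896682, plus strand: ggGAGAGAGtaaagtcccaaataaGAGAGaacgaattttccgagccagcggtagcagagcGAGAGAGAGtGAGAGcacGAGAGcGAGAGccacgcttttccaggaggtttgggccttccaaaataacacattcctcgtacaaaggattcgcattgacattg
Shal promoter, chr3L:19584548-19584708, minus strand: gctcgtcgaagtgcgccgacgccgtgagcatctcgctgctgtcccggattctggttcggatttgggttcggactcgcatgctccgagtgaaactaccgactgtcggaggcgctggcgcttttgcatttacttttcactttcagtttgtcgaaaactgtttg
Shaw promoter 1, chr2L:3718011-3718171, plus strand: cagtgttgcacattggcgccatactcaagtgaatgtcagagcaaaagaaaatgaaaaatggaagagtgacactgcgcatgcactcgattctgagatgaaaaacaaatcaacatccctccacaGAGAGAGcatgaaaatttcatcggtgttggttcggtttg

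*para*, like *Shal*, had no replicate 1 peak within 2 kb, and its replicate 2 peaks were weak. None of its 3 promoters, of which promoter 3 starts 58 of the 60 transcripts, had a summit within 200 bp. The nearest replicate 2 summit lay 1125 bp downstream of promoter 3, in an intron (5.35-fold, rank 5792), and another lay 1635 bp downstream of promoter 1 (2.61-fold, rank 9544). A further summit lay in an exon near the 3′ end (2.86-fold, rank 9325). The nearest replicate 1 summit lay 88666 bp from a *para* TSS.

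*KCNQ* held the strongest Lola-I peak of all 10 genes, and it was intronic. *KCNQ* spans 46.5 kb, with a promoter 1 that starts 1 transcript and a promoter 2, inside the gene, that starts the other 8. All 3 of its shared summits lay in the interval upstream of promoter 2. The farthest, 5251 bp upstream, had 49-fold enrichment in replicate 1 (rank 19 of 1750) and 244-fold in replicate 2 (rank 18 of 9665), with the summits 4 bp apart. At 1321 bp upstream the folds were 6.12 and 50.3 (ranks 656 and 624). The remaining summit, 3734 bp upstream, had folds of 5.01 and 35.7 (ranks 590 and 513) and lay 27 bp upstream of the TSS of *mlt*, a gene nested in the *KCNQ* intron, so it is as much a promoter summit of *mlt* as an intronic one of *KCNQ*. At promoter 1 a summit 87 bp upstream was in replicate 2 alone (5.73-fold, rank 4323), and promoter 2 itself had no summit within 200 bp.

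*Ih* had only middle-ranked to low-ranked summits. Of its 5 promoters, none had a summit within 200 bp. Replicate 2 had a summit 697 bp upstream of promoter 1 (4.91-fold, rank 4934), which starts 6 of the 11 transcripts, and an intronic summit 3664 bp upstream of promoter 2 (2.85-fold, rank 8020). Replicate 1 had 2 exonic summits that replicate 2 lacked, 1200 and 915 bp upstream of promoter 2 (2.91-fold and 2.71-fold, ranks 1436 and 1552). No *Ih* peak was shared.

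**Figure D2:**
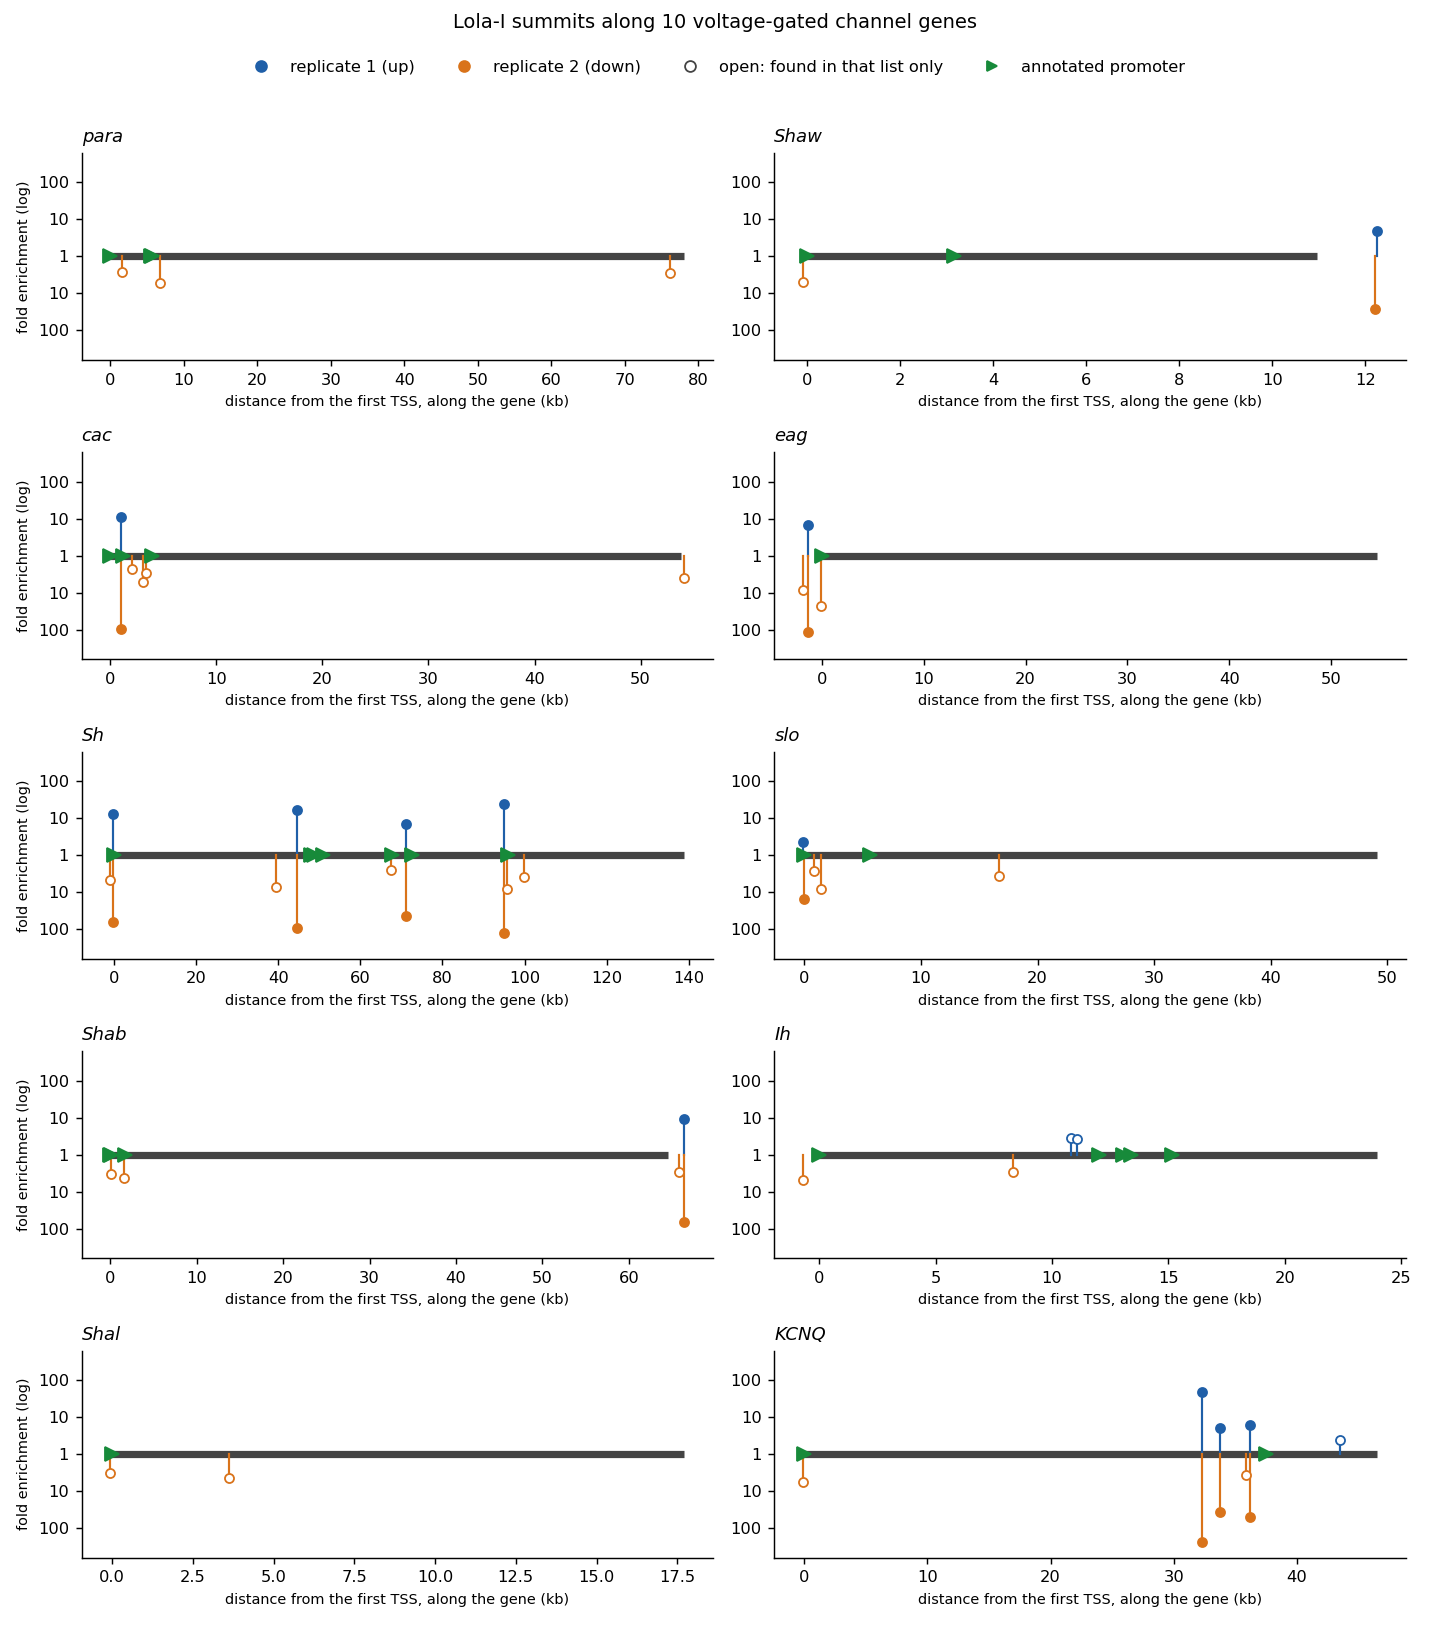
Lola-I summits along the 10 channel genes and 2 kb on either side, plotted by distance from the first TSS in the direction of transcription (kb), with fold enrichment on a logarithmic scale, replicate 1 upward in blue and replicate 2 downward in orange. Filled circles are peaks found in both lists, open circles peaks of that list alone, grey bars the gene bodies and green triangles the annotated promoters. *Sh* and *KCNQ* carry filled circles between their promoters, and *para* carries open replicate 2 circles alone.

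Taking the introns of the 10 genes together, shared peaks were concentrated in *Sh* and *KCNQ*. These 2 genes held all 6 shared intronic summits, 3 each, beside 2.52% of the 12718 genes with introns and 12.1% of protein-coding genes of at least 10 kb that had any. Having 3 or more was less common, at 34 genes or 0.267% of all genes with introns, a share not computed for long genes alone. Of the 3 in *KCNQ*, 1 is the peak at *mlt*. Leaving out summits within 200 bp of a TSS of another gene, 5 shared intronic summits remained in the channel genes. Replicate 2 had 21 intronic summits in 7 of the 10 genes, all but *Shab*, *Shaw* and *eag*, beside 12.2% of genes with introns and 50.3% of protein-coding genes of at least 10 kb. The 10 genes hold 429 kb of intron. Per 100 kb of intron that makes 1.4 shared summits, against 0.645 in protein-coding genes of at least 10 kb and 0.687 in all genes. Without *KCNQ* it was 0.777, without *Sh* 0.96, and without both 0, so the figure for the family rests on these genes. For replicate 2 the channel genes had 4.9 intronic summits per 100 kb, against 5.06 in protein-coding genes of at least 10 kb and 5.42 in all genes, which is no higher.

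Most replicate 2 intronic summits lay near a promoter of their own gene. Of the 21 replicate 2 intronic summits, 13 (61.9%) lay within 2 kb of a TSS of the same gene, against 42.6% in protein-coding genes of at least 10 kb and 49.2% in all genes. Examples are the summits in *cac*, 528 and 875 bp upstream of promoter 3 (2.95-fold and 5.06-fold, ranks 9361 and 6122) and 831 bp downstream of promoter 2 (2.32-fold, rank 9604), and in *slo*, 837 and 1436 bp downstream of promoter 1 (2.63-fold and 8.34-fold, ranks 8238 and 3106). *slo* also had a summit 11047 bp downstream of promoter 2 (3.64-fold, rank 6799). The shared intronic summits of *Sh* and *KCNQ* were upstream of their nearest own TSS in 6 of 6 cases, against 179 of 336 (53.3%) in the 3275 genes with 2 or more promoters. Summits of replicate 2 alone showed no such side, with 7 of 15 upstream (46.7%) in the channel genes against 41.8% in those genes. At promoters, both replicate 1 summits and all 8 replicate 2 summits were upstream when measured from the nearest TSS, against 84.9% and 78.1% of promoter summits in genes with 2 or more promoters. The 6 shared intronic summits come from only 2 genes and include the peak at *mlt*, and these shares were not tested.

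In all, 12 shared peaks lay in or within 2 kb of the channel genes, with folds of 2.35 to 49 in replicate 1 and 15 to 244 in replicate 2. Over all 1531 shared peaks the median fold was 4.95 in replicate 1 and 38.3 in replicate 2, and the median distance between paired summits was 19 bp. Of the 12, the *slo* promoter peak and the *Shaw* peak described next were below both medians, the *KCNQ* peak at *mlt* was above the replicate 1 median alone, and the other 9 were above both. The *Shab* peak downstream of the gene (9.53-fold and 64.5-fold, ranks 394 and 519) lay 109 bp upstream of *Or63a*, an odorant receptor gene, and the *Shaw* peak downstream of the gene (4.89-fold and 26-fold, ranks 857 and 1286) lay 31 bp upstream of *CG10019*. Those 2 peaks are promoter peaks of neighbouring genes by the 200 bp limit.

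**Figure D3:**
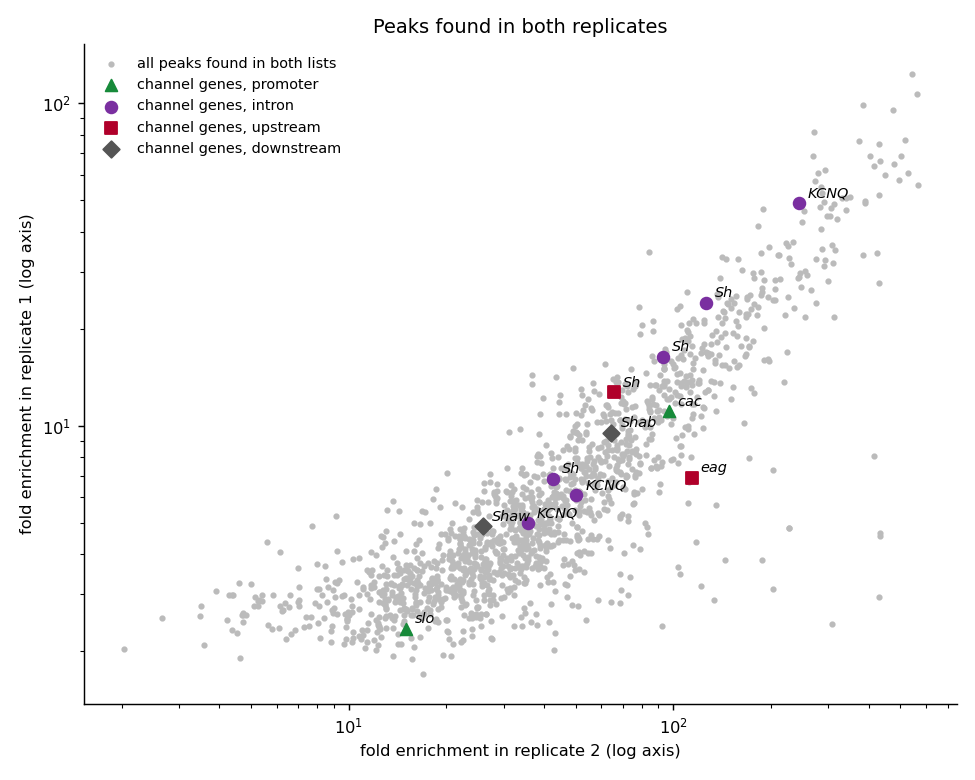
Fold enrichment of the 1531 peaks found in both lists, in replicate 1 (vertical) against replicate 2 (horizontal), both on log axes. Grey dots are all shared peaks and coloured symbols the 12 in or within 2 kb of the channel genes, by position. The *KCNQ* intron peak (49-fold and 244-fold) is the highest of the 12 and the *slo* promoter peak (2.35-fold and 15-fold) the lowest.

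Most promoter peaks called in replicate 2 alone had ranks at which few replicate 2 peaks were found in replicate 1. Why they were not called there was not tested. When the replicate 2 list was cut into 10 classes by −log10 p-value, 92.3% of the peaks in the highest class were found in replicate 1, 42.3% in the next (ranks 967 to 1933) and 9.83% in the class after it. The *cac* promoter peak fell in the highest class, and the *slo* and *eag* promoter peaks both fell in the next, where *slo* was shared and *eag* was not. The 5 other promoter summits of *Shab*, *Shal*, *Shaw* and *KCNQ* ranked lower, from 4323 to 7879, in classes where at most 1.34% of peaks were found in replicate 1.

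AAAGCT was more common at shared peaks in or within 2 kb of the channel genes than at peaks of replicate 2 alone. The whole lists showed the same contrast, so it is not particular to these genes, and it was not tested. Some peaks of both sets lay nearer to a TSS of another gene. Windows of 201 bp centred on the summit were searched on both strands for exact matches. AAAGCT occurred in 10 of the 12 shared windows (83.3%) and at least 2 times in 9 of them (75%), against 75.8% and 48.7% of all 1531 shared peaks. Among the 27 peaks of replicate 2 alone AAAGCT occurred in 5 (18.5%), against 20.3% of all 8200 such peaks. The 2 shared windows without it were those at *mlt* and at *CG10019*. AAGCTC and AAGCTT, which overlap AAAGCT, occurred in 9 and 7 of the 12 shared windows (75% and 58.3%), against 53.7% and 44.2% of all shared peaks.

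GAGAG occurred in 7 of 12 shared windows (58.3%) and 15 of 27 replicate 2 windows (55.6%), against 47.6% of all shared peaks and 46.1% of all peaks of replicate 2 alone. At least 2 matches were in 1 of 12 shared windows (8.33%) and 10 of 27 replicate 2 windows (37%), against 26.8% and 28.1% over the whole lists. CAGCTG, an E-box, occurred in 2 of 12 and 4 of 27 windows (16.7% and 14.8%), against 17.4% and 15.2%. TATCGATA occurred in none of the 12 shared windows and in 1 of the 27, that at the *eag* promoter, against 1.37% and 5.9%. In the 29 promoters themselves, from 250 bp upstream to 50 bp downstream of the TSS, AAAGCT occurred in 4 (13.8%), against 21.3% of all promoters, and GAGAG in 13 (44.8%), against 32.5%. The 4 promoters with AAAGCT were *cac* promoters 2 and 3, *Sh* promoter 6 and *slo* promoter 1. A match shows only that the letters are present.

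Many listed genes that encode related channels, or that work with channels, had shared Lola-I summits at their promoters. The list holds 20 genes, called further channel genes here although some encode auxiliary subunits or regulators. Of them, 13 had a shared promoter summit, placed by its replicate 1 position. They were 9 of the 12 auxiliary and regulatory genes and 4 of the 8 other pore-forming genes. The same count held for 16.3% of protein-coding genes of at least 10 kb and 4.51% of all genes. At *Teh1*, *Teh2* and *Hk* the overlapping replicate 2 summit lay 526, 462 and 232 bp upstream of that promoter, beyond the 200 bp limit. In replicate 2 the counts were 8 of 12 and 7 of 8, against 66.3% of protein-coding genes of at least 10 kb and 25.4% of all genes. For the auxiliary genes that count is near the share of long genes. Some of the 20 genes are themselves shorter than 10 kb, among them *tipE*, *Teh2*, *Teh3*, *Teh4* and *qvr* (2.02 to 9.1 kb). The lists were chosen with earlier results of these data known, and the difference from the 10 genes was not tested. Among pore-forming genes, *Ca-alpha1D*, the L-type calcium channel, had a shared summit 47 bp upstream of promoter 2 with folds of 12.1 and 97.1 (ranks 312 and 330), much like *cac*. *Ca-alpha1T*, the T-type calcium channel, had folds of 5.41 and 17.1 (ranks 772 and 1576), *Elk*, a relative of *eag*, 5.67 and 47 (ranks 512 and 491), and *SLO2*, a relative of *slo*, 6.07 and 42.5 (ranks 619 and 738). *SLO2* also had 3 shared intronic peaks, as many as *Sh* and *KCNQ*, and *SK*, a calcium-activated potassium channel, had 1 (6.16-fold in replicate 1, rank 674).

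For *para* and *Sh*, neither of which had a promoter summit, partner genes had shared ones. *para* works with the auxiliary subunits *tipE*, *Teh1* and *Teh2*, whose promoters had replicate 1 summits of 4.89-fold, 2.84-fold and 3.72-fold (ranks 693, 1451 and 921), each overlapped in replicate 2. Of the same subunit family, *Teh3* had no promoter summit in either list and *Teh4* had one in replicate 2 alone (3.26-fold, rank 7565). *tipE* and *Teh2* are neighbours, and their summits lay under a single replicate 2 interval of 1045 bp, with 25.9-fold enrichment and its summit 14 bp upstream of *tipE*. At *Teh1* a stronger replicate 1 peak lay 534 bp upstream (10.4-fold, rank 352). Both *Teh1* peaks of replicate 1 touched the same replicate 2 interval, whose summit lay 526 bp upstream (64.2-fold, rank 445). *Sh* works with *Hk*, its beta subunit, and *qvr*, a small membrane protein that regulates it. *qvr* had the highest fold of the 13 promoter peaks, 19 in replicate 1 and 157 in replicate 2 (ranks 168 and 155), 48 bp upstream of its TSS. At *Hk* the replicate 1 summit lay 128 bp upstream of promoter 2 (4.95-fold, rank 845), but the overlapping replicate 2 summit lay 232 bp upstream, beyond the promoter limit, and the replicate 2 promoter summit was at promoter 3 (17.2-fold, rank 1860). *Hk* introns held 10 replicate 2 summits, the overlapping one among them.

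Partners of *cac* and *slo* also had shared promoter summits, but not every listed one: *stol*, an auxiliary calcium channel gene, had no promoter summit in either list. *Ca-beta* and *stj*, auxiliary subunits of calcium channels, had shared summits 165 and 96 bp upstream of a TSS, with replicate 1 folds of 10.9 and 3.94 (ranks 246 and 820) and replicate 2 folds of 46.7 and 32.5 (ranks 314 and 696). *Slob*, which binds the Slo channel, and *dysc*, a regulator of *slo*, had replicate 1 folds of 4.49 and 4.72 (ranks 923 and 882) and replicate 2 folds of 20.3 and 27.7 (ranks 1615 and 1216). *slo* itself, with 2.35-fold enrichment and rank 1291 in replicate 1, had a lower fold than either of them in both lists.

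**Figure D4:**
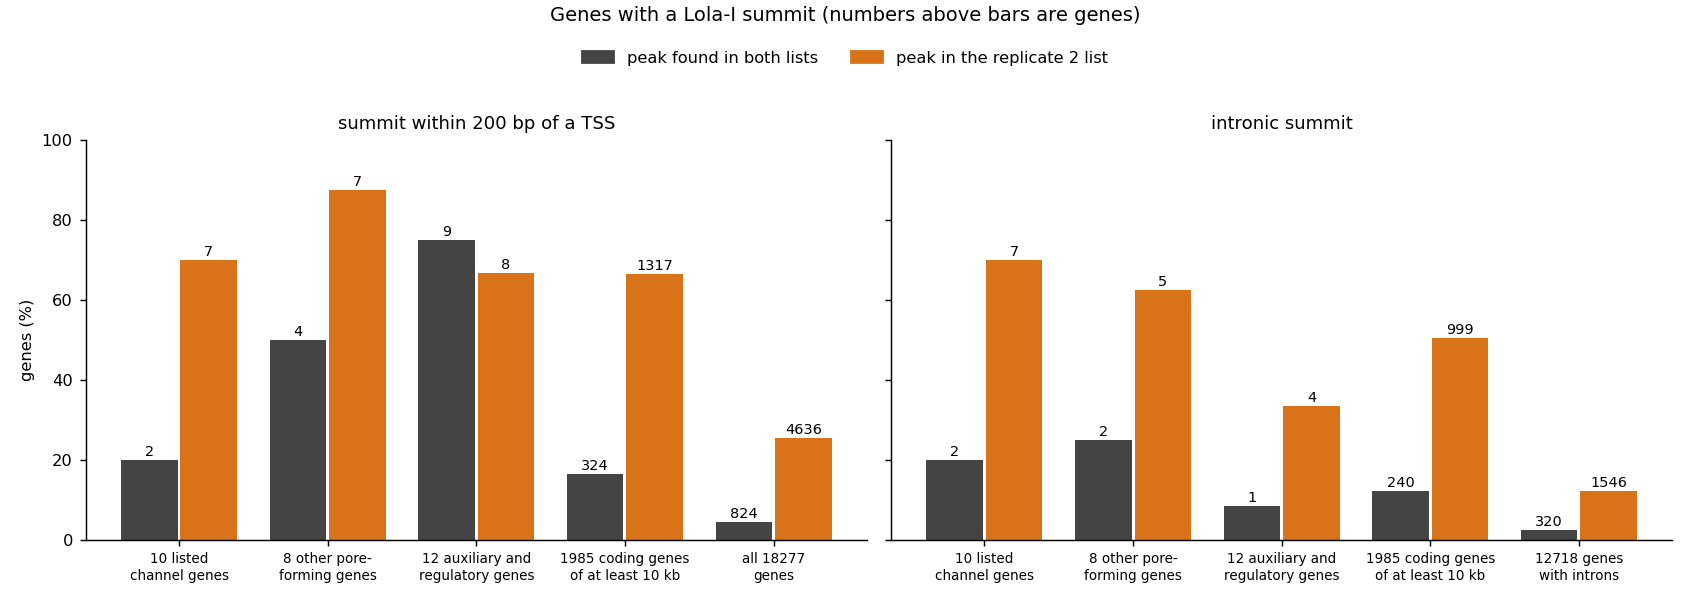
Share of genes (%) with a Lola-I summit within 200 bp of a TSS (left) or in an intron (right), for the 10 listed channel genes, 8 other pore-forming channel genes, 12 auxiliary and regulatory genes, protein-coding genes of at least 10 kb, and all genes (left) or genes with introns (right). Dark bars are peaks found in both lists, placed by the replicate 1 summit, orange bars peaks of the replicate 2 list, and numbers above the bars count genes. At promoters 2 of the 10 listed genes have a shared summit, against 9 of 12 auxiliary and regulatory genes. There the dark bar exceeds the orange one because the replicate 2 summits at *Teh1* and *Teh2* lie beyond 200 bp, while *Teh4* adds 1 gene to the orange bar alone.

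By position on dm6, *para* (FBgn0285944) spans X 16455027 to 16533096 on the minus strand, *cac* (FBgn0263111) X 11931280 to 11985087 on the minus strand, *Sh* (FBgn0003380) X 17924307 to 18063247 on the minus strand and *eag* (FBgn0000535) X 14955477 to 15009989 on the plus strand. *Shab* (FBgn0262593) spans 3L 2895017 to 2959579 on the plus strand, *Shal* (FBgn0005564) 3L 19566851 to 19584568 on the minus strand, *Shaw* (FBgn0003386) 2L 3718185 to 3729145 on the plus strand and *slo* (FBgn0003429) 3R 24662491 to 24711595 on the plus strand. *Ih* (FBgn0263397) spans 2R 14276130 to 14300095 on the plus strand and *KCNQ* (FBgn0033494) 2R 10145897 to 10192394 on the minus strand. The marked promoters begin at 11983915 (*cac* promoter 2) and 24662491 (*slo* promoter 1). Promoters are numbered from the first to the last TSS in the direction of transcription.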

How the data were processed

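Chromatin of formaldehyde-fixed embryos was sonicated, precipitated with the anti-Lola-I antibody and sequenced, per the labels' protocols. The submitters' processing notes name the build dm6, CASAVA 1.8.2 and Bowtie 1.0.0, without their roles. The peak caller, its control and its filters are not given in the sources used here. The authors deposited 1 peak list per replicate, without header, in the narrowPeak layout. On the chromosome arms, all 1750 and 9665 peaks have as deposited score their −log10 p-value times 10, decimals dropped. By its place in that layout, the fold enrichment the authors deposited is a ratio to the background their caller estimated, and the deposited −log10 p-value is the caller's own, each within a library. Depth and the precision of single peaks are unknown.

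Each peak was represented by its deposited summit, and 9 peaks per list off the 7 arms were left out. Shared peaks are replicate 1 intervals that touch a replicate 2 interval over 1 bp or more, counted at the replicate 1 summit. Genes, without transposable elements, came from Ensembl release 115 (BDGP 6.54), whose TSSs were identical in RefSeq for the 10 channel genes, and the bases printed from RefSeq Release 6. Both sources use dm6 coordinates. Intronic summits lie within a gene, outside all its exons and beyond 200 bp of its TSSs. Nested genes each count a peak. Analyses used Python 3.11.15, NumPy 2.4.6 and matplotlib 3.10.9, and the assignment was checked on planted peaks. Counts are set beside the same counts over all genes and were not tested. The genes, gene lists and words were chosen with earlier results of these data known, and the 10 kb class after the genes' lengths were seen. All 10 genes are named, further channel genes where replicate 1 had a promoter summit or a peak was shared there, and other genes where their TSS lies within 200 bp of a summit or they are nested there. *SK*, *Teh3* and *Teh4* were named after their values were seen.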

Additional observations from a re-analysis of the deposited data

How the results depend on the processing

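No paired analysis was possible because both lists belong to 1 group and no groups were compared. Of 57 alternatives, 38 left a count within 1.5 times its main value and 19 moved it further. With summits within 100 bp of a TSS, 1 gene rather than 2 had a shared promoter summit (*slo*), 1 had a replicate 1 promoter summit and 1 promoter a shared summit. Within 1000 bp, 4 genes had a replicate 1 promoter summit and 14 promoters a replicate 2 summit. With reciprocal overlap of at least 50%, 1 gene and 1 promoter kept a shared summit (*cac*). In the higher-scoring 50% of each list, 1 gene had a shared and 1 a replicate 1 promoter summit, 4 genes and 4 promoters had a replicate 2 summit, 1 promoter had a shared summit, and 9 replicate 2 intronic summits were left. With replicate 2 cut to the length of the replicate 1 list, 3 genes and 3 promoters had a replicate 2 promoter summit and 6 intronic summits were left. Those limits remove peaks by construction. Leaving out 1 replicate, so that the other list stood alone, gave 2 to 7 genes and 2 to 9 promoters with a promoter summit and 6 to 21 intronic summits. Read depth limits what a missing peak shows, and it is unknown for both libraries.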

Other observations

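Some peaks of the channel genes lay outside their promoters and introns and were not described above. *KCNQ* had an exonic summit in replicate 1 alone, 5972 bp downstream of promoter 2 (2.48-fold, rank 1612). With the *Ih* pair it makes 3 exonic replicate 1 summits, none of which was found in replicate 2. Over the whole replicate 1 list, 1531 of 1750 peaks were found in replicate 2. That share was not computed for exonic or for low-ranked peaks, so the 3 summits show no trait of exonic peaks. Downstream of *cac* a replicate 2 summit (3.87-fold, rank 7984) lay 118 bp upstream of *Pdzd8*, and downstream of *Shab* another (3.02-fold, rank 8820) lay 189 bp inside the start of *CG34025*.

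Outside promoters and introns, the most strongly enriched peak near the 10 listed or the 20 further channel genes was at *stol*, an auxiliary calcium channel gene whose promoters had no summit in either list. It lay just beyond the 3′ end of the gene, with 27.7-fold enrichment in replicate 1 (rank 32) and 432-fold in replicate 2 (rank 2). *stol* was named after its values were seen.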
